A study of Mus musculus with 40 samples.

Results

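The complement genes described here are 9 genes whose products start, amplify or stabilise the complement cascade: C1qa, C1qb, C1qc, C1ra, C1s1, C3, C4b, Cfb and Cfp. They were taken by gene symbol from the deposited normalised table, in which all 9 were present, and they are 9 of the 21204 genes of that table. Their levels were followed in bulk RNA sequencing (RNAseq) of rib tissue, a composite of bone, bone marrow and intercostal muscle ground up together, so that all cell types of the piece contributed reads. All mice carried the label of wild-type genotype and, per the study's methods, were female C75BL/6 mice (strain name as spelled there). The immature mice were 7 weeks old and the mature mice were over 10 months old. Both ages were sampled at baseline and then at 4 stages counted in days post-resection, namely 0dpr, 2dpr, 5dpr and 14dpr, the resection being the surgical removal of a segment of rib. Baseline is used here in the study's sense of tissue before resection, although the labels describe all tissue as collected after it. No group received a drug or carried a transgene. There were 4 libraries in each of the 10 groups except mature 5dpr, which had 3 because replicate 2 of that group was not analysed here. The labels do not state that each library came from a separate animal, and p-values therefore measure only the spread between these libraries.

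Complement is a set of plasma and tissue proteins that mark and clear microbes, dying cells and debris. In the classical pathway, the recognition protein C1q, built from the chains encoded by C1qa, C1qb and C1qc, binds a surface and switches on the proteases C1r and C1s, which cut C4 and C2 and so lead to cleavage of C3. In the alternative pathway, factor B (Cfb) forms the C3-cutting enzyme with C3b, and properdin (Cfp) holds that enzyme together. The liver makes much of the C3, C4, C1r, C1s and factor B found in plasma, whereas C1q and properdin come largely from myeloid cells, with macrophages a main source of C1q in tissue. Fibroblasts and other stromal cells also produce C1r, C1s, C3 and C4.

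In the GENCODE annotation of GRCm38, the C1q chain genes lay side by side on the minus strand of chromosome 4 within 18675 bases (chr4:136880129-136898803). C1ra (plus strand) and C1s1 (minus strand) were neighbours on chromosome 6 within 29955 bases (chr6:124512405-124542359). C4b and Cfb lay within 134139 bases, both genes included, on the minus strand of chromosome 17 (chr17:34728380-34862518), C3 was farther along that chromosome (chr17:57203970-57228136), and Cfp was on chromosome X (chrX:20925454-20931555). All are annotated as protein-coding. RefSeq promoter sequence (GRCm38.p6) was at hand for 6 of the 9 members, the others being C1qa, C4b and Cfb. The 250 bases before the RefSeq start are shown for C1qb and C1qc, because the C1q chains moved together across the libraries, for C1ra and C1s1, because these neighbours did so too, and for C3, the protein on which the pathways converge. RefSeq and GENCODE starts can differ, and the windows of C1qc and C1ra lie partly or mostly within the genes as placed by GENCODE. Distances below are from the RefSeq start.

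C1qb, chr4:136886201-136886450, minus strand: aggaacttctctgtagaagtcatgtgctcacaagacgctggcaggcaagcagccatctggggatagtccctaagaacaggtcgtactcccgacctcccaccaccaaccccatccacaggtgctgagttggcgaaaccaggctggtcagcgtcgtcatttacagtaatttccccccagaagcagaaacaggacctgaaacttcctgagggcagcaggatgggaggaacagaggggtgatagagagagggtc
C1qc, chr4:136892915-136893164, minus strand: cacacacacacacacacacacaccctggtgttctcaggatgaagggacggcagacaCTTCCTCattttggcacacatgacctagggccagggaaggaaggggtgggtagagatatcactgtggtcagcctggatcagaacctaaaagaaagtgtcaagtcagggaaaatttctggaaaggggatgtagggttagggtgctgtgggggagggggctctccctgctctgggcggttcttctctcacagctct
C1ra, chr6:124512371-124512620, plus strand: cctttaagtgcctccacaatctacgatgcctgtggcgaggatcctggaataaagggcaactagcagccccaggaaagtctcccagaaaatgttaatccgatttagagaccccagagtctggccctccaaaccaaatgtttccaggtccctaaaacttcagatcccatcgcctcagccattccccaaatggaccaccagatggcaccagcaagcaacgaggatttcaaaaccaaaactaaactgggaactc
C1s1, chr6:124542360-124542609, minus strand: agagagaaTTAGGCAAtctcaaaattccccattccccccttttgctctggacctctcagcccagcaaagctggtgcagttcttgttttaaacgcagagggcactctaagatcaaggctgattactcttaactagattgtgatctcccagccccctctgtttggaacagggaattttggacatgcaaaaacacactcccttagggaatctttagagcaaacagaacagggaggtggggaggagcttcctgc
C3, chr17:57228137-57228386, minus strand: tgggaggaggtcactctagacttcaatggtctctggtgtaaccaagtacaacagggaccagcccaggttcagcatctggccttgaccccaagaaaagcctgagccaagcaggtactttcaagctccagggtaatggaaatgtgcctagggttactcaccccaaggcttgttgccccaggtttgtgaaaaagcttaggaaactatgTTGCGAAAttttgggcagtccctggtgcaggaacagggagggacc
Each line reads 5′ to 3′ towards the start of the gene, and capitals mark letters that match a searched motif. Both strands were searched for 7 short patterns, namely PU.1 (GAGGAAG), C/EBP (TTGCNNAA), GAS (TTCNNNGAA), the TATA box (letters TATAAA) and, by name alone, ISRE, AP-1 and NF-kB. C1qc held the PU.1 letters on the opposite strand, 194 bases before the start, as do 10.6% of the 32851 promoter windows of this length in the table. The C/EBP letters stood in C3, 45 bases before the start, and on the opposite strand in C1s1, 242 bases before the start, against 9.56% of all windows. No match overlapped another, and the remaining 5 patterns were not found in the windows of the 6 members, while GAS letters occur in 7.02%, ISRE in 2.98%, AP-1 in 6.75%, NF-kB in 0.356% and TATA in 12.4% of all windows. A second annotated start of C1s1 was searched too and held no match. These matches describe letters and are not evidence of binding.

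Libraries held between 6057756 and 21537070 reads counted to genes (median 9087417), and levels are given as CPM, the reads of a gene relative to the size of its library, after scaling of the libraries by the trimmed mean of M-values (TMM). Immature 0dpr replicate 1 stood apart, with a sum over 10 hepatocyte markers of 7730 CPM, against 0 to 372 CPM in the other 38 libraries. The highest of those, 372 and 230 CPM, belonged to mature 0dpr replicates 2 and 1. Since the liver expresses C3, C4b and other members, counts of members and most changes that rest on immature 0dpr are given without that library too. Mature 2dpr replicate 3 had the lowest mean correlation of log2 CPM with its group, 0.893. It also had reads for only 14214 genes, against 19068 to 20823 in the other 38 libraries. All 10 macrophage markers and all 10 fibroblast and stromal markers had reads in every library, and the skeletal muscle list fell from between 54600 and 129000 CPM at 0dpr to between 7900 and 17000 CPM at 2dpr over both ages. In bulk tissue, fewer cells of a type and less RNA per cell cannot be told apart.

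Consecutive stages were compared within each age with edgeR's quasi-likelihood test on the deposited counts, fitted over all 39 libraries, with p-values adjusted over the 21204 genes by the Benjamini-Hochberg method and a threshold of 0.05. Neighbouring comparisons share the libraries of the stage between them and are not independent. From 0dpr to 2dpr in immature mice, 5 of 9 members rose, where 21.8% of all genes rose, and 2 fell, where 22.2% of all genes fell. Without replicate 1 of immature 0dpr, 5 rose and 1 fell (21.2% and 19.5% of all genes). Over the same interval, mature mice had 4 members that rose (22.7% of all genes) and 1 that fell (24.9%). With both libraries that stand apart left out, an alternative chosen after seeing the data, 6 were called in place of 5, the added gene being Cfb. No share over all genes is given for that setting, and its count cannot be set against one. The median log2 fold change of the 9 members was 1.74 in immature and 1.63 in mature mice, against -0.04 and -0.05 over all genes. From baseline to 0dpr, 3 members rose and 0 fell in immature mice (5.98% and 4.66% of all genes), or 2 and 0 without replicate 1 of 0dpr (3.52% and 2.36%), whereas 0 rose and 3 fell in mature mice (11.9% and 10.6%). From 2dpr to 5dpr, 1 rose and 1 fell in immature mice (4.37% and 3.68%), and mature mice had 3 that rose and 0 that fell (8.16% and 6.38%). From 5dpr to 14dpr, the same pair of genes, C1ra and C1s1, rose at both ages (1.73% of all genes in immature and 1.95% in mature mice), and 0 members fell (1.45% and 2.23%). By 14dpr, 8 of 9 members stood above baseline in immature and 8 of 9 in mature mice, where 16.4% and 17.1% of all genes did, and 0 stood below it (15.1% and 16.4%).

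**Figure D1:**
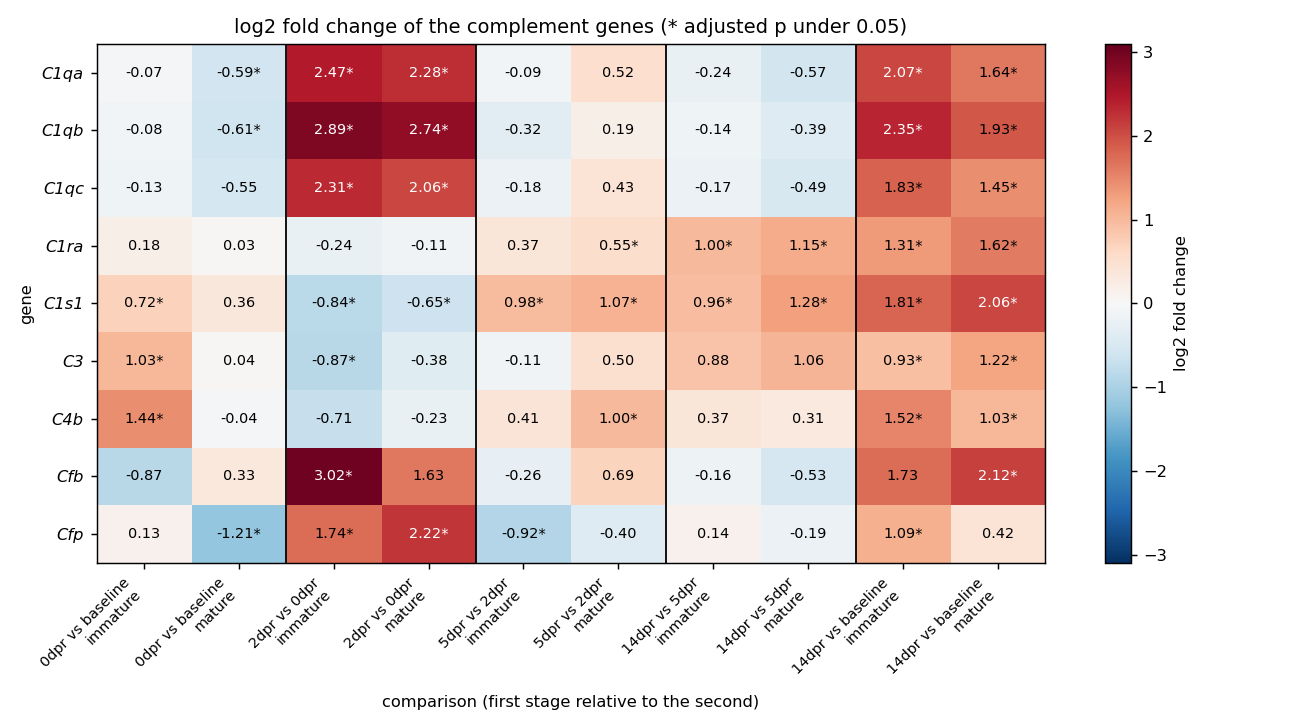
log2 fold change of each complement gene (rows) in each comparison of stages at each age (columns), from the fit over 39 libraries, with an asterisk where the adjusted p was under 0.05. The C1q chains and Cfp had their largest changes at 2dpr against 0dpr, whereas C1ra and C1s1 rose from 5dpr to 14dpr.

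All chains of C1q, the recognition molecule, rose between 0dpr and 2dpr at both ages. In immature mice, C1qa stood at 89.9, 91.8, 53.2 and 106 CPM in the 4 libraries at 0dpr and at 484, 544, 436 and 421 CPM at 2dpr. In mature mice, it stood at 82.8, 86.4, 97.6 and 100 CPM at 0dpr and at 488, 465, 270 and 557 CPM at 2dpr. Every 2dpr library lay above every 0dpr library at both ages, and mature 2dpr replicate 3 was the lowest of the 2dpr libraries. C1qa rose by a log2 fold change of 2.47 (SE 0.228, adjusted p = 6.93e-11, edgeR) in the former and 2.28 (SE 0.226, adjusted p = 2.02e-10) in the latter, and without immature 0dpr replicate 1 the immature change was 2.51 (adjusted p = 8.23e-10). C1qb, the second chain, rose most of the 3, with means of 79.8 ± 13.5 CPM at 0dpr and 592 ± 63.1 CPM at 2dpr (SD, n = 4) in immature mice. In mature mice, the means were 86.3 ± 13.6 and 577 ± 147 CPM (SD, n = 4). The changes amounted to 7.42-fold and 6.69-fold, and the log2 fold change in immature mice was 2.93 without replicate 1 of 0dpr (adjusted p = 1.29e-11, edgeR). C1qc, the third chain, rose 4.95-fold in immature and 4.17-fold in mature mice (adjusted p = 3.58e-10 and 2.1e-09), with a log2 fold change of 2.29 in the former without that library (adjusted p = 5.26e-09, edgeR).

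After 2dpr, the C1q chains did not change past the threshold in either age, while their levels remained far above those of the uninjured tissue. In mature mice at 5dpr, C1qa stood at 615, 758 and 541 CPM, and at 14dpr at 519, 353, 370 and 471 CPM. In immature mice, it stood at 379, 517, 479 and 399 CPM at 5dpr and at 483, 306, 388 and 324 CPM at 14dpr. The 5dpr libraries of mature mice lay above their 14dpr libraries without overlap for C1qa (log2 fold change -0.57, SE 0.23, adjusted p = 0.162), and the call was not made. Against baseline, the 14dpr level was higher 4.2-fold for C1qa, 5.09-fold for C1qb and 3.56-fold for C1qc in immature mice, and 3.11-fold, 3.82-fold and 2.73-fold in mature mice (adjusted p at most 3.04e-06, edgeR). Ordered by mean, the 6 groups of 2, 5 and 14dpr came before the 4 groups of baseline and 0dpr for each chain. For C1qa the lowest library of the former was at 270 CPM and the highest of the latter at 189 CPM. Within the upper 6 groups, the ranges of neighbours in the order overlapped, with mature 5dpr first for all 3 chains.

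In mature mice, C1qa and C1qb fell from baseline to 0dpr (log2 fold change -0.59 and -0.61, adjusted p = 0.0482 and 0.0283, edgeR), and C1qc was at -0.55 (adjusted p = 0.0694). The baseline libraries of mature mice held C1qa at 189, 117, 119 and 126 CPM, with replicate 1 far above the rest. Without mature baseline replicate 1, 0 of the 9 members were called in this comparison, in which 4 had an unadjusted p under 0.05 with all libraries (edgeR) and DESeq2 called 3. Leaving out mature 0dpr replicate 1 or replicate 3 left 1 call, and leaving out mature baseline replicate 4 gave 5 calls. No share over all genes is given for these alternatives or for the unadjusted count, and they cannot be set against one.

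**Figure D2:**
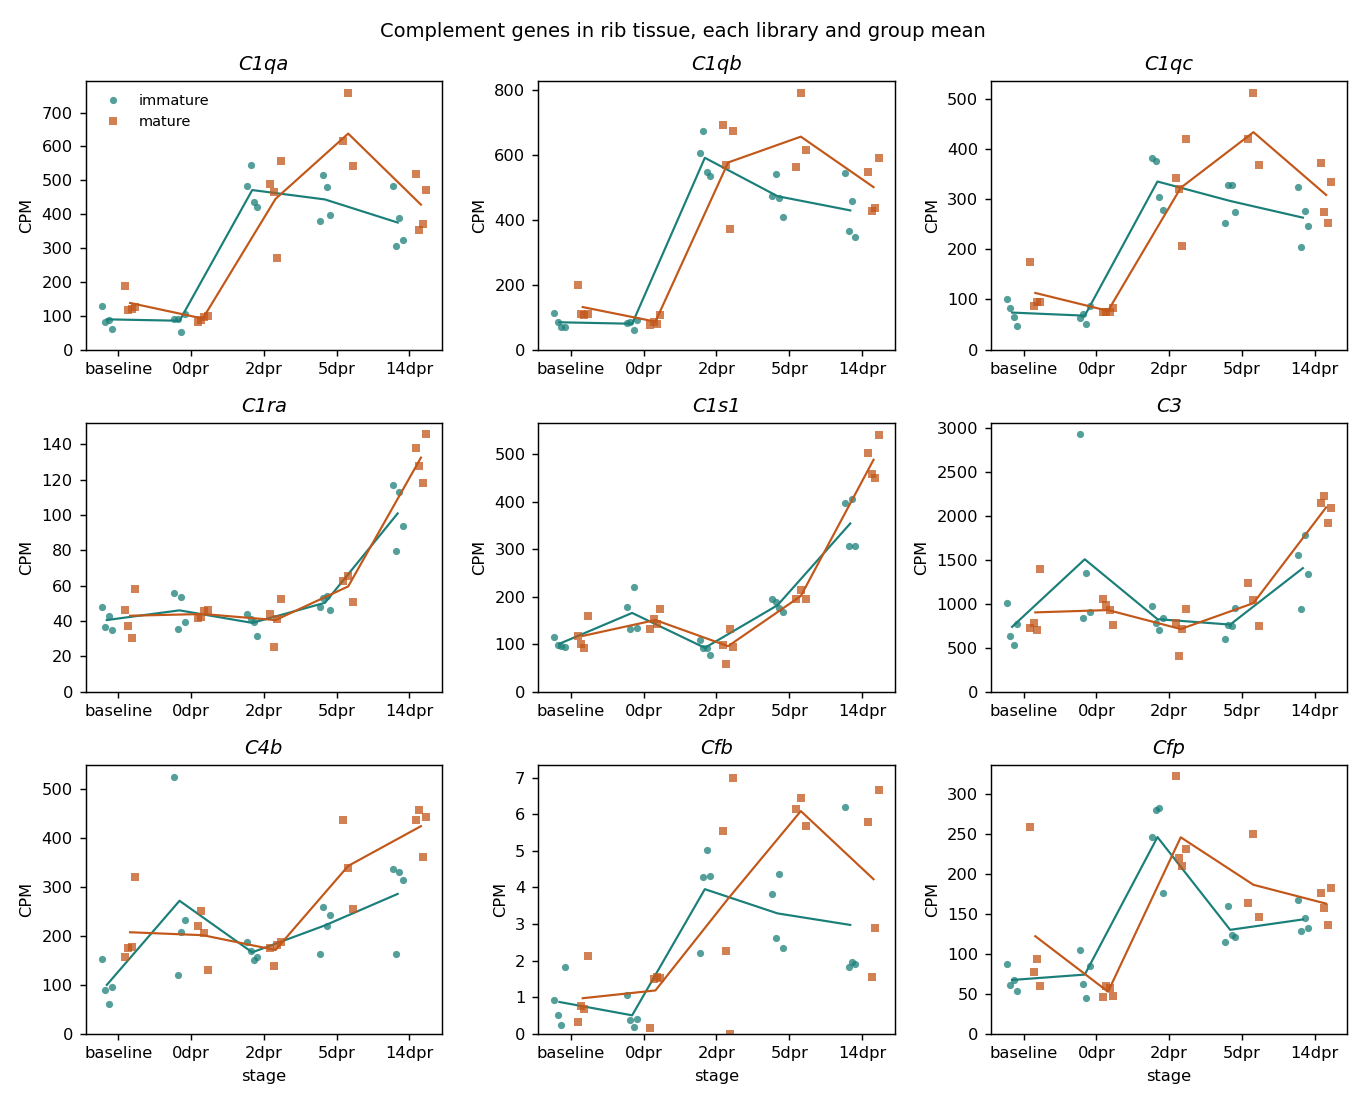
CPM of each complement gene (panels, linear axes from 0) at baseline, 0, 2, 5 and 14dpr, with 1 point for each library of immature (circles) and mature mice (squares) and lines through the group means. C1qa, C1qb, C1qc and Cfp step up at 2dpr, C1ra and C1s1 are highest at 14dpr, and the immature 0dpr library at 2930 CPM stands out for C3.

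The proteases that C1q activates followed another course. C1s1, which cuts C4 and C2, fell from 179, 131, 220 and 133 CPM at 0dpr to 108, 90.9, 92.3 and 77.9 CPM at 2dpr in immature mice. It fell from 132, 153, 143 and 175 CPM to 98.8, 58.6, 132 and 93.7 CPM in mature mice. The libraries of the stages were separate in immature mice and overlapped at about 132 CPM in mature mice. The log2 fold change was -0.84 (SE 0.18, adjusted p = 0.000222) in immature, -0.78 (adjusted p = 0.00123) there without replicate 1 of 0dpr, and -0.65 (SE 0.179, adjusted p = 0.00278, edgeR) in mature mice. C1ra, the protease that activates C1s, showed log2 fold changes of -0.24 and -0.11 over this interval (adjusted p = 0.289 and 0.631), or -0.12 in immature mice without replicate 1 of 0dpr (adjusted p = 0.648). C1s1 had risen from baseline to 0dpr in immature mice, by 0.72 (adjusted p = 0.0101) or by 0.65 without replicate 1 (adjusted p = 0.0397), while in mature mice its log2 fold change of 0.36 did not pass (adjusted p = 0.147).

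C1s1 climbed from 2dpr on, and C1ra from 5dpr at both ages. C1s1 was at 194, 189, 177 and 168 CPM at 5dpr and at 398, 306, 405 and 307 CPM at 14dpr in immature mice, and at 194, 215 and 195 CPM and then 503, 459, 449 and 541 CPM in mature mice. Each stage lay above the one before it without overlap at both ages. The rise from 2dpr to 5dpr was 1.97-fold in immature and 2.1-fold in mature mice (adjusted p = 0.000408 and 0.000148), and that from 5dpr to 14dpr 1.94-fold and 2.42-fold (adjusted p = 0.00098 and 0.000101, edgeR). C1ra was at 47.9, 53.1, 54.1 and 46.2 CPM at 5dpr and at 117, 79.8, 113 and 93.8 CPM at 14dpr in immature mice, and at 62.7, 65.3 and 50.8 CPM and then 138, 128, 118 and 146 CPM in mature mice. All 8 libraries of 14dpr lay above all 31 others, of which the highest was at 65.3 CPM. Its rise from 5dpr to 14dpr was 2-fold in immature and 2.22-fold in mature mice (adjusted p = 0.000584 and 0.000343), and its earlier rise in mature mice, 1.47-fold from 2dpr (adjusted p = 0.0458, edgeR), passed in 1 of the 7 fits with a library omitted. At 14dpr, C1s1 stood 3.51-fold and C1ra 2.49-fold above baseline in immature mice, and 4.16-fold and 3.08-fold in mature mice.

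Parts of the counts of both genes cannot be assigned with certainty. Of the 100-base windows of the longest transcript, 34.5% of C1ra occur letter for letter in its paralog C1rb and 7.9% of C1s1 in C1s2. An antisense gene, Gm16567, shares 18.4% of the exonic bases of C1s1, and since the sources used here do not state that the stranded libraries were counted by strand, reads of the pair cannot be told apart.

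C4b and C3 are the substrates of the cascade, C4 being cut by C1s and C3 by the enzymes of all pathways. C3 had the highest counts of the 9 genes. In immature mice it stood at 1010, 633, 534 and 774 CPM at baseline and at 2930, 837, 1350 and 910 CPM at 0dpr. The highest value is that of the library with the hepatocyte markers, and the remaining 3 overlapped with baseline. The rise to 0dpr was 2.04-fold with that library (log2 fold change 1.03, SE 0.292, adjusted p = 0.0216) and was not called without it (0.45, SE 0.253, adjusted p = 0.282, edgeR). Leaving out baseline replicate 3, 4 or 6 also ended the call, with log2 fold changes of 0.92, 0.86 and 1.05 (adjusted p = 0.072, 0.0807 and 0.0515, edgeR). Likewise the fall to 2dpr, of 0.87 on the log2 scale with it (adjusted p = 0.0146), was at -0.3 without it (adjusted p = 0.36). In mature mice, the same steps had log2 fold changes of 0.04 and -0.38 (adjusted p = 0.937 and 0.287).

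At 14dpr, C3 stood at 1560, 944, 1780 and 1340 CPM in immature and at 2150, 2230, 1920 and 2090 CPM in mature mice. The mature libraries of 14dpr lay above every mature library of the other stages, of which the highest was at 1400 CPM. Relative to baseline, the log2 fold change was 0.93 in immature (SE 0.291, adjusted p = 0.0131) and 1.22 in mature mice (SE 0.293, adjusted p = 0.0012, edgeR). Relative to 5dpr it was 0.88 and 1.06 and did not pass (adjusted p = 0.0954 and 0.052), although the mature libraries of these stages did not overlap. The hepatocyte list was at 0.935 to 51 CPM in the 14dpr libraries, and Alb had no read in 1 of the 39 libraries of the series.

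C4b rose from 153, 89.2, 61.3 and 95.7 CPM at baseline to 525, 121, 207 and 233 CPM at 0dpr in immature mice. The library with the hepatocyte markers again gave the highest value, and replicate 2 overlapped with baseline. The log2 fold change was 1.44 (SE 0.305, adjusted p = 0.00326), or 0.88 without that library (SE 0.269, adjusted p = 0.0464, edgeR). In mature mice, C4b was at 156, 175, 177 and 321 CPM at baseline and at 219, 250, 205 and 131 CPM at 0dpr, and the log2 fold change was -0.04 (adjusted p = 0.939). The difference between the ages in this step was 1.49 on the log2 scale (unadjusted p = 0.00129, adjusted p = 0.425), and 0.97 without the library named above (adjusted p = 0.688). From 2dpr to 5dpr, C4b rose 2-fold in mature mice, from 176, 139, 182 and 187 CPM to 436, 338 and 254 CPM (adjusted p = 0.03, edgeR). The libraries of both stages were separate, yet only 3 of 7 fits with a library left out kept the call. At 14dpr it stood 2.86-fold above baseline in immature and 2.05-fold in mature mice (adjusted p = 0.000173 and 0.00691, edgeR). Of the 100-base windows of C4b, 16.5% occur in its paralog C4a.

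Properdin, encoded by Cfp, rose together with the C1q chains. In immature mice, Cfp stood at 105, 62, 44.4 and 84.7 CPM at 0dpr, at 246, 280, 282 and 176 CPM at 2dpr and at 115, 160, 124 and 121 CPM at 5dpr. In mature mice, it stood at 46.4, 60, 57 and 47.2 CPM at 0dpr, at 322, 220, 210 and 231 CPM at 2dpr and at 163, 250 and 146 CPM at 5dpr. The 2dpr libraries lay above those of 0dpr at both ages and above those of 5dpr in immature mice. The rise to 2dpr was 3.34-fold in immature (adjusted p = 7.39e-06), where it had a log2 fold change of 1.97 without replicate 1 of 0dpr, and 4.67-fold in mature mice (adjusted p = 1.05e-07, edgeR). The fall to 5dpr had a log2 fold change of -0.92 in immature (SE 0.284, adjusted p = 0.0374, edgeR), which 2 of the 8 fits with a library left out called, and of -0.4 in mature mice (adjusted p = 0.422). At 14dpr, Cfp was above baseline in immature mice, 2.13-fold (adjusted p = 0.0033). In mature mice the log2 fold change was 0.42 (adjusted p = 0.282), with baseline replicate 1 at 258 CPM and the other 3 baseline libraries at 77.2, 93.4 and 59.5 CPM. Without that library it was 1.09 (adjusted p = 0.000343, edgeR). The fall of Cfp from baseline to 0dpr in mature mice, -1.21 on the log2 scale (adjusted p = 0.00257), became -0.54 without it (adjusted p = 0.0953, edgeR).

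Factor B was sparsely counted. Cfb had between 0 and 151 reads in a library, and 79.5% of its exonic bases are shared on the same strand with the read-through gene Gm20547, which also takes in the neighbouring gene C2. Reads in such shared exons cannot be assigned to one gene, and the values of Cfb are therefore uncertain. In immature mice, Cfb was at 1.05, 0.37, 0.182 and 0.417 CPM at 0dpr and at 2.2, 4.28, 5.03 and 4.3 CPM at 2dpr. These libraries did not overlap, and the rise had a log2 fold change of 3.02 (SE 0.788, adjusted p = 0.00198), or 3.64 without replicate 1 of 0dpr (adjusted p = 0.00148, edgeR). In mature mice, it was at 0.157, 1.5, 1.55 and 1.53 CPM at 0dpr and at 5.53, 2.25, 0 and 6.99 CPM at 2dpr, replicate 3 having 0 reads. The log2 fold change of 1.63 (SE 0.699) did not pass the threshold (adjusted p = 0.0526, edgeR). It was 2.03 without replicate 3 of 2dpr (adjusted p = 0.00414) and 1.81 without replicate 2 (adjusted p = 0.0435, edgeR), and both passed. At 14dpr, the log2 fold change against baseline was 1.73 in immature mice, not past the threshold (adjusted p = 0.0641), and 2.12 in mature mice, past it (adjusted p = 0.0184, edgeR), and the latter was called in 3 of the 8 fits with a library left out.

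Per 1000 exonic bases, which allows genes to be compared, C3 and the C1q chains led at baseline in immature mice. There, the median was 137 CPM per 1000 bases for C3, 81.6 for C1qa, 71 for C1qb, 38.3 for C1qc, 36.9 for Cfp, 31.1 for C1s1, 16.2 for C4b, 13.3 for C1ra and 0.253 for Cfb. At 14dpr in these mice, the order was led by C1qb at 379 and C1qa at 342, followed by C3 at 282. In mature mice at 14dpr, C1qb was at 452, C3 at 412 and C1qa at 404 CPM per 1000 bases, and the ranges of these genes overlapped (394 to 544, 373 to 434 and 339 to 499).

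Immature and mature mice were compared at each stage to ask whether skeletal maturity goes with another complement programme. By edgeR, 0 of 9 members were called at baseline, 0, 2, 5 or 14dpr, where 0.585%, 0.726%, 0.627%, 0% and 0.00943% of all genes were called in either direction. The members with an unadjusted p under 0.05 numbered 5, 1, 0, 3 and 2 at these stages, and DESeq2 called 1 at baseline (C4b) and 0 at the others. No share over all genes is given for the unadjusted or DESeq2 counts, and they cannot be set against one. At 2dpr, when C1q was high, the ages were close, with log2 fold changes (immature against mature) of 0.08 for C1qa (SE 0.214), 0.04 for C1qb (SE 0.2) and 0.06 for C1qc (SE 0.217), and of 0.00 for Cfp (SE 0.281).

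At some stages, the libraries of the ages were separate even though no adjusted p passed. No member was separate at 0dpr or 2dpr, where 1.58% and 1.79% of all genes were lower without overlap in immature mice. At no stage was a member higher there without overlap, against 2.16% to 4.42% of all genes. Members such as the C1q chains varied together, so the counts below are not of independent genes. At baseline, C4b was lower in immature mice without overlap, with 61.3 to 153 against 156 to 321 CPM (log2 fold change -1.05, SE 0.302, adjusted p = 0.105), 1 of 9 members where 4.63% of all genes were lower without overlap. At 5dpr, C1qa, C1qb, C1qc and Cfb, 4 of 9, were lower in immature mice without overlap, against 6.19% of all genes. C1qb was at 410 to 541 CPM in immature and 562 to 792 CPM in mature mice there (log2 fold change -0.47, SE 0.215, adjusted p = 0.924). At 14dpr, 4 of 9 were lower in immature mice without overlap, namely C1ra, C1s1, C3 and C4b, against 2.72% of all genes. C3 was at 944 to 1780 against 1920 to 2230 CPM (log2 fold change -0.58, SE 0.289, adjusted p = 1), and C1s1 at 306 to 405 against 449 to 541 CPM (log2 fold change -0.46, SE 0.178, adjusted p = 0.957, edgeR). Of the differences between ages in the change from stage to stage, 0 of 9 members were called in any of the 5 comparisons by edgeR or DESeq2, where 0.0141% of all genes were called for 0dpr against baseline, 0.0613% for 2dpr against 0dpr, 0% for 5dpr against 2dpr and for 14dpr against 5dpr, and 0.0472% for 14dpr against baseline (edgeR). The members with an unadjusted p under 0.05 there numbered 3 for 0dpr against baseline (Cfp, C3 and C4b) and 0 for the others. Here too, no share over all genes is given for the unadjusted counts.

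Some members varied together over the 39 libraries, a description in which stage, cell composition and library are shared by all genes. Pearson's r of log2 CPM was 0.988 to 0.995 between the C1q chains, 0.948 between C1ra and C1s1, 0.824 between C3 and C4b, and 0.868 to 0.884 between the C1q chains and Cfp. Between C1q chains and C3 it was 0.0697 to 0.0811. The members did not part into sharply separate sets. C1ra and C1s1 had an r of 0.797 and 0.766 with C3 and of 0.711 and 0.72 with C4b. Cfb had an r of 0.732 to 0.757 with the C1q chains. Ratios of reads within a library, which need no scaling between libraries, show the exchange of the classical components. The ratio of C1qa to C1s1 was 0.242 to 0.796 at 0dpr over both ages, 2.04 to 7.94 at 2dpr, 1.95 to 3.52 at 5dpr and 0.77 to 1.21 at 14dpr. By 14dpr it thus lay within its baseline range of 0.641 to 1.61, although the genes themselves were higher. The value of 2.04 was that of mature 2dpr replicate 3, the library with the fewest detected genes.

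The C1q chains did not keep one ratio either. C1qb to C1qa was 0.816 to 1.13 at 0dpr and 1.21 to 1.42 at 2dpr over both ages, without overlap, and 0.915 to 1.25 at 5dpr and 1.06 to 1.26 at 14dpr. C1qc to C1qa was 0.706 to 0.952 at 0dpr and 0.662 to 0.79 at 2dpr, and these overlapped. C1s1 to C1ra was 3.12 to 4.11 at 0dpr, 1.79 to 3.24 at 2dpr and 3.09 to 4.05 at 5dpr, with 2.25 to 3.07 at baseline. The value of 3.24 was again that of mature 2dpr replicate 3.

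**Figure D3:**
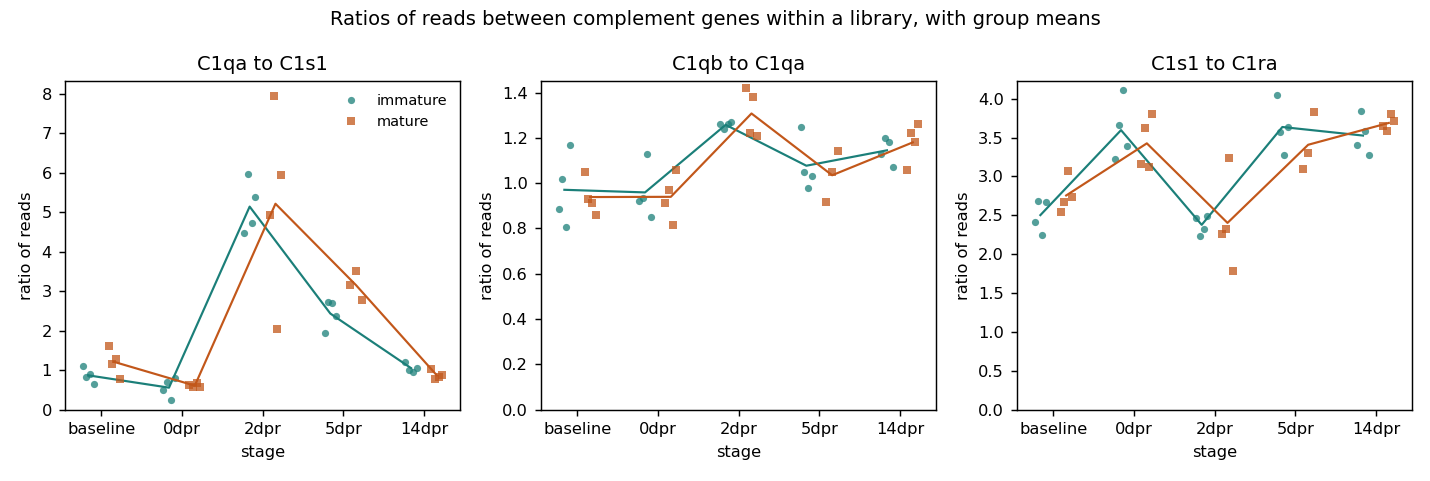
Ratio of reads of C1qa to C1s1 (left), C1qb to C1qa (middle) and C1s1 to C1ra (right) at each stage, with 1 point for each library of immature (circles) and mature mice (squares) and lines through the group means. C1qa to C1s1 lies between 2.04 and 7.94 at 2dpr and between 0.242 and 0.796 at 0dpr, and C1qb to C1qa lies between 1.21 and 1.42 at 2dpr and between 0.816 and 1.13 at 0dpr.

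Summed marker lists of cell types were set beside these members, and the macrophage list rose with the C1q chains and Cfp at 2dpr. The sum of the 10 macrophage markers was 997 to 1740 CPM at 0dpr and 6620 to 8140 CPM at 2dpr in immature, and 1010 to 2150 and 6210 to 7920 CPM in mature mice, and 10 of 10 markers rose at both ages. Most reads of that list belonged to Lyz2, with 1373066 over the 39 libraries against 167366 for the next, Csf1r, so the sum mainly follows Lyz2. The C1q chains together amounted to 14.3% to 20.9% of that sum at 0dpr and 16.1% to 22.3% at 2dpr in immature mice, and to 11.4% to 23.1% and 11.3% to 26.6% in mature mice, ranges that overlap. At 5dpr they amounted to 14.1% to 27.8% in immature and 24.1% to 30.9% in mature mice. Their baseline values were 9.35% to 14.6% in immature mice, separate from 2dpr, and 9.77% to 19.4% in mature mice, overlapping with 2dpr. Cfp was 3.57% to 6.7% of the list at 0dpr and 1.77% to 2.21% at 14dpr in immature mice, without overlap, and 2.78% to 4.78% and 1.93% to 2.3% in mature mice, also without overlap. At 2dpr, Cfp was 2.3% to 4.26% of the list in immature and 2.78% to 4.06% in mature mice, overlapping with 0dpr at both ages. The fibroblast and stromal list rose from 18700 to 24800 CPM at 2dpr to 59000 to 70500 CPM at 14dpr in immature, and from 9220 to 12200 to 48800 to 73500 CPM in mature mice. It did not follow C1s1 at every earlier step. Its medians at baseline, 0dpr and 2dpr were 24400, 22800 and 20800 CPM in immature mice. In mature mice they were 17000, 7840 and 10100 CPM, although C1s1 fell from 0dpr to 2dpr. Most reads of the fibroblast and stromal list belonged to Col3a1, Col1a2 and Col1a1 (4032401, 3642275 and 3554074), against 424290 for the next, Dcn. C1ra and C1s1 together were 0.44% to 0.728% of that list at 2dpr and 0.568% to 0.867% at 14dpr in immature, and 0.687% to 1.88% and 0.871% to 1.41% in mature mice. At 5dpr they were 0.447% to 0.736% in immature mice, overlapping with 14dpr, and 0.71% to 0.761% in mature mice, separate from 14dpr. The part of cell numbers in the members' changes was not tested.

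**Figure D4:**
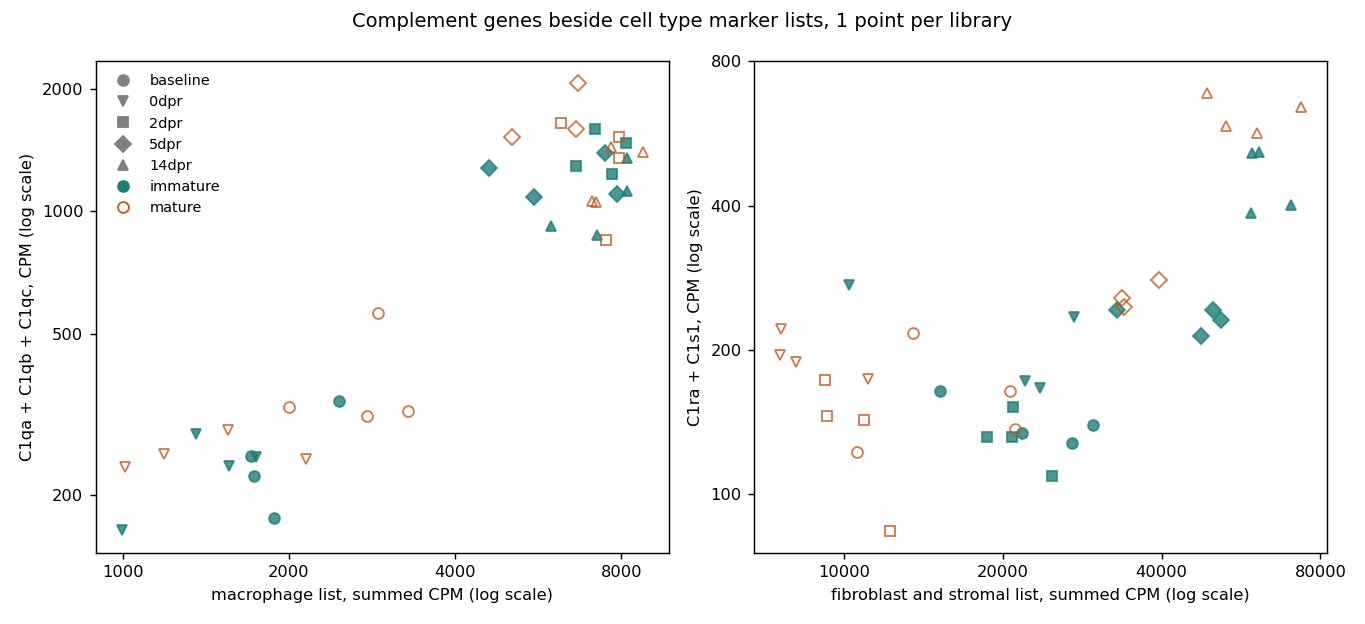
Summed CPM of the C1q chains against that of 10 macrophage markers (left) and summed CPM of C1ra and C1s1 against that of 10 fibroblast and stromal markers (right), on log axes, with 1 point per library, colour and fill for age and shape for stage. The C1q chains and the macrophage list are both low at baseline and 0dpr and both high from 2dpr on, and the 8 libraries of 14dpr are highest for C1ra and C1s1.

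Among 16082 genes with a mean of at least 1 CPM, those closest to C1qa over the 39 libraries by Pearson's r of log2 CPM were Ms4a7 (0.97), Grn (0.968), Cxcl16 (0.965), Ftl1 (0.963) and Arl4c (0.959). Those closest to Cfp were Adap2 (0.931), Mrc1 (0.925), Adgre1 (0.92), Slc7a7 (0.917) and Rab32 (0.916). Closest to C1s1 was Serping1 (0.96), which encodes the C1 inhibitor that inactivates C1r and C1s, ahead of Il11ra1 (0.908), Cd34 (0.907), Ace (0.902) and Ccn3 (0.9). C3 had weaker matches, with Flt4 (0.781), Prelp (0.774), Lbp (0.774), Serping1 (0.765) and Sned1 (0.757).

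The other genes of the pathway were described from 5 lists with 47 genes, of which 38 were in the table. At 2dpr against 0dpr, immature mice had 7 that rose and 18 that fell, and mature mice 9 that rose and 11 that fell. Without immature 0dpr replicate 1, the counts in immature mice were 7 and 11. With mature 2dpr replicate 3 left out as well, they were 7 and 12 in immature and 8 and 17 in mature mice. Of all genes, 21.8% rose and 22.2% fell in immature and 22.7% and 24.9% in mature mice with all libraries. Without immature 0dpr replicate 1, 21.2% rose and 19.5% fell in immature mice. No share over all genes is given here for the setting with both libraries left out, and its counts cannot be set against one. Most receptors rose. Of 9 receptor genes, 7 rose and 1 fell at both ages, also with both libraries that stand apart left out, with a median log2 fold change of 2.4 in immature and 2.41 in mature mice. C3ar1, the receptor of the C3a fragment, was at 11.2, 9, 9.56 and 6.54 CPM at 0dpr and at 289, 393, 425 and 314 CPM at 2dpr in immature mice, and at 10.7, 9.36, 9.97 and 8.06 CPM and then 430, 476, 324 and 495 CPM in mature mice. No 2dpr library came near a 0dpr library, and the rise was 39.1-fold (adjusted p = 4.71e-19) and 45.3-fold (adjusted p = 1.61e-19, edgeR). C5ar1, the receptor of C5a, rose 13-fold and 15-fold. Itgam and Itgb2, the chains of the receptor for inactivated C3b, rose 5.36-fold and 5.29-fold in immature and 8.77-fold and 4.95-fold in mature mice, and Itgax, whose product pairs with Itgb2, rose 11.3-fold and 5.32-fold. Cd93 rose 3.8-fold and 5.63-fold. Cr2, the complement receptor of B cells, fell by 1.73 and 3.06 on the log2 scale, from means of 1.2 and 2.15 CPM. Without replicate 1 of immature 0dpr, the log2 fold changes in immature mice were 5.42 for C3ar1, 3.81 for C5ar1, 2.79 for Itgam, 2.6 for Itgb2, 3.4 for Itgax, 1.86 for Cd93 and -1.81 for Cr2, all past the threshold. From 2dpr to 5dpr, 5 of the 9 receptors fell at both ages, where 3.68% of all genes fell in immature and 6.38% in mature mice, among them C3ar1 by 1.35 and 1.1 and C5ar1 by 1.27 and 0.94 on the log2 scale.

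Of the regulators and late components, those that changed at 2dpr fell. Of the 7 soluble regulators in the table, 7 fell in immature and 2 in mature mice, where 22.2% and 24.9% of all genes fell. The 2 of 7 in mature mice lies near the share over all genes there. Without immature 0dpr replicate 1, 3 of 7 fell in immature mice (19.5% of all genes), Serping1 and Vtn among them. With both libraries that stand apart left out, 4 fell in immature and 5 in mature mice. Serping1 had a log2 fold change of -0.61 in immature mice (-0.5 without that library, adjusted p = 0.0111, edgeR). In mature mice, Serping1 was at -0.64 (adjusted p = 0.000728, edgeR). Vtn, which blocks membrane attack, fell by 2.9 and 2.11 on the log2 scale, with -1.46 in immature mice without the library (adjusted p = 1.14e-06). Clu had log2 fold changes of -0.73 and 0.13 (adjusted p = 0.0291 and 0.719), and -0.47 without the library (adjusted p = 0.179). Serping1 then rose at both steps in which C1s1 rose, 1.75-fold and 2.25-fold from 2dpr to 5dpr and 1.66-fold and 1.83-fold from 5dpr to 14dpr in immature and mature mice (adjusted p at most 0.00364, edgeR).

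Of the 7 membrane regulators in the table, 4 fell in immature and 3 in mature mice at 2dpr, also with both libraries that stand apart left out. With all libraries, 22.2% and 24.9% of all genes fell. Cd55, which breaks up the C3-cutting enzymes, fell by 1.73 and 1.41, Cd59a, which blocks membrane attack, by 1.62 and 1.37, and Cd59b by 2.21 and 1.6 on the log2 scale. Without replicate 1 of immature 0dpr, the immature values were -1.85, -1.68 and -2.36. Cr1l was at -0.01 and 0.23 (adjusted p = 0.969 and 0.0809). Of 5 genes of the alternative and terminal pathways in the table, 3 fell at each age, and 1 in immature mice without the library with hepatocyte markers, or 1 in immature and 4 in mature mice with both libraries that stand apart left out. The 1 of 5 without the library with hepatocyte markers lies near the 19.5% of all genes that fell there. The gene that fell in immature mice without that library was Cfd, the protease that cuts factor B and a product of fat cells, which fell by 1.5 and 1.42 on the log2 scale (-1.46 without that library, adjusted p = 0.00289), beside an adipocyte list of which 9 of 10 genes fell at each age. Hc, which encodes C5, stood at 106, 0, 0.364 and 0 CPM in the immature 0dpr libraries, and its log2 fold change of -6.9 became 0.57 without the first of them (adjusted p = 0.775). C8g had log2 fold changes of -3.33 in immature mice, -1.19 there without that library (adjusted p = 0.104), and in mature animals of -3.22 (adjusted p = 0.00136, edgeR). Beside the falls of C8g and Vtn in mature mice, 7 of 10 hepatocyte markers fell there too (median log2 fold change -3.83), and the part of these markers' cells in the falls was not tested. Of 10 genes of classical and lectin initiation in the table, 0 rose and 3 fell in the immature group (2 without that library). In the mature group, 2 rose and 2 fell, or 1 and 4 with both libraries that stand apart left out. Of all genes, 21.8% rose and 22.2% fell in immature and 22.7% and 24.9% in mature mice. The 3 of 10 in immature and the 2 and 2 of 10 in mature mice lie near these shares. The age by stage interaction called 0 of the 10, where 0.0613% of all genes were called. Colec11 fell by 2.05 and 2.3 on the log2 scale, from means of 2.43 and 1.74 CPM, and was at -1.57 in immature mice without replicate 1 of 0dpr (adjusted p = 0.0336, edgeR).

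**Figure D5:**
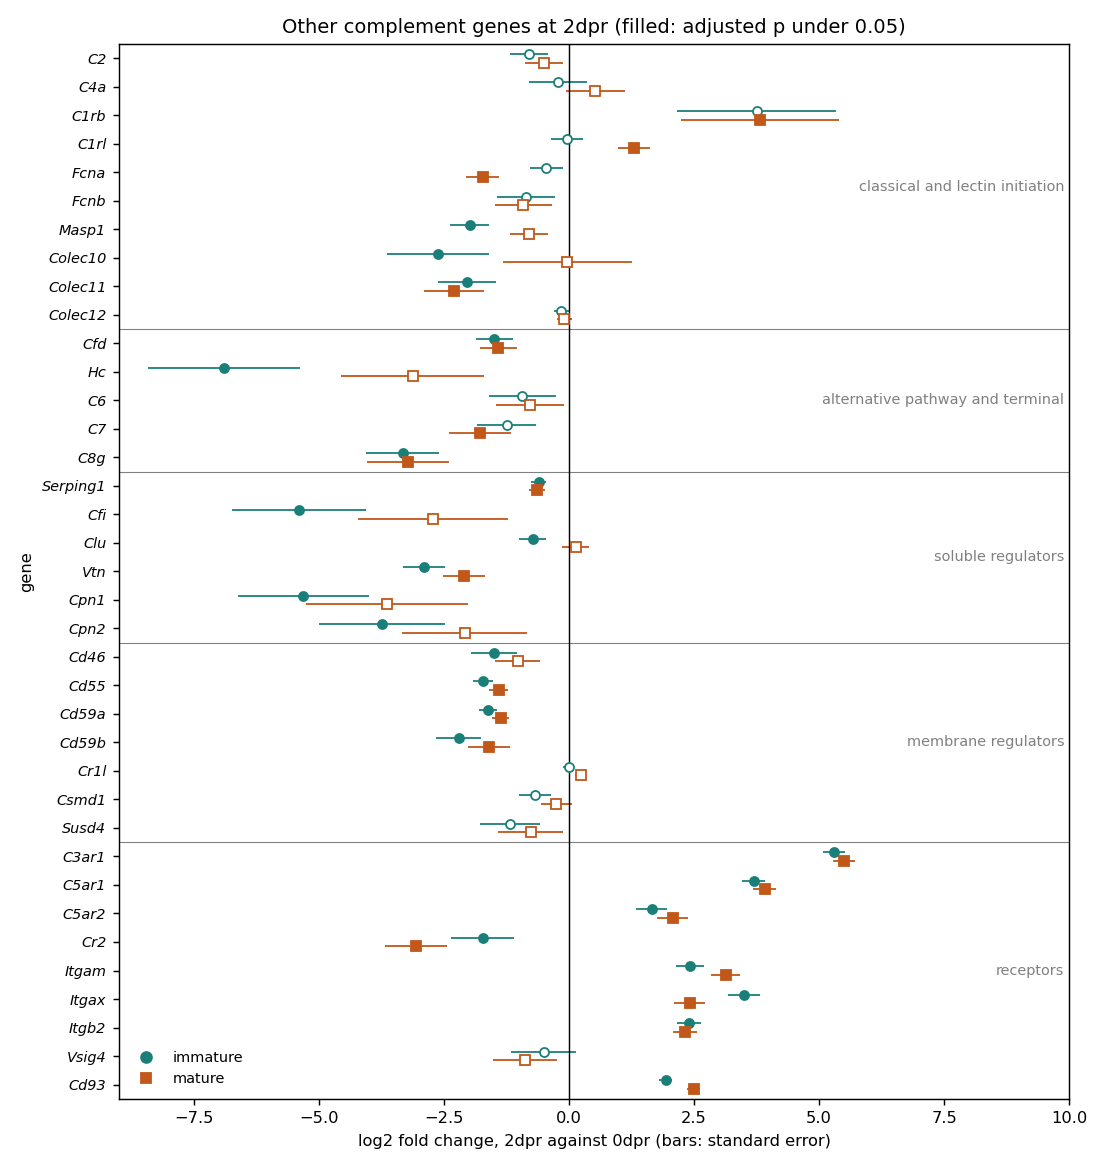
log2 fold change at 2dpr against 0dpr with its standard error for other complement genes in the table, grouped by role, in immature (circles) and mature mice (squares), filled where the adjusted p was under 0.05. The receptors C3ar1, C5ar1, Itgam, Itgax, Itgb2 and Cd93 lie to the right of 0, and Cd55, Cd59a, Cd59b, Serping1 and Vtn lie to the left.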

How the data were processed

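RNA was sequenced from composite rib tissue as stranded TruSeq libraries on a NovaSeq instrument, in separate runs that the labels do not assign to libraries. Per the submitters' processing notes and the study's methods, reads were mapped to GRCm38 and counted per gene with STAR 2.5.2a. The authors deposited raw read counts for 48733 genes and a normalised signal, CPM scaled by TMM, for 21204 genes; the rule of that filter and the strand setting are not given in the sources used here. Recomputed CPM matched the deposited CPM to a relative difference of at most 5e-15. The 39 libraries (10 groups, from the labels) held 6057756 to 21537070 counts (median 9087417), and no pair agreed within sampling noise (chi-square of at least 6.39 per gene).

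The counts of the 21204 genes were fitted over all 10 groups with edgeR 4.0.16 in R 4.3.3 (TMM, quasi-likelihood test). Calls were made at 0.05 after Benjamini-Hochberg adjustment. A prior count of 2 entered the log2 CPM used for correlations and likeness. Consecutive stages, 14dpr against baseline, the ages and the age by stage interactions were tested. DESeq2 1.42.0, size factors in place of TMM, other filters, a fit of only the libraries compared, omission of each library and a replicate block were alternatives, as was a prior count of 0.5 for likeness. The scripts were tested on simulated data. Positions came from the GENCODE vM21 annotation of GRCm38 and promoters from RefSeq.

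All 9 members were named whatever their values. Of 5 lists of other pathway genes, Cfd, Hc, Serping1, Clu, Cd55, Cr1l, C3ar1, C5ar1, Itgam and Itgb2 were named in any case, and up to 3 more per list with the largest change at 2dpr against 0dpr among those called at both ages; 1 further gene is counted in its list but not reported here. For likeness, the 5 genes with the highest r to C1qa, C1s1, C3 and Cfp among genes with a mean of at least 1 CPM were named. The members and lists were chosen with earlier results of these data known. Same-numbered libraries deviated together in every pair only for immature against mature mice at 0dpr (r of 0.109 to 0.207 over 4 pairs), and the pairing comes from the data rather than from the labels.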

Additional observations from a re-analysis of the deposited data

Results flagged for a closer look

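Of 81 groups of 4 libraries tested for a library far from the others, 10 were flagged, and chance flags about 1 in 20 groups. In mature mice at baseline, replicate 1 was the high library for C1qa (189 CPM), C1qb (199 CPM), C1qc (175 CPM) and Cfp (258 CPM), and replicate 4 for C3 (1400 CPM) and C4b (321 CPM). Replicate 4 of mature mice at 0dpr was high for C1qc (83.2 CPM). C4b was low in replicate 2 of immature mice at 14dpr (162 CPM). Cfb was high in replicate 1 of immature mice at 14dpr (6.21 CPM) and low in replicate 1 of mature mice at 0dpr (0.157 CPM), where it rests on 1 read.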

How the results depend on the processing

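Over 46 settings, the 43 member changes that were called gave 583 values with the same direction and call, 57 that no longer passed the threshold and 0 that reversed. With the replicate block, the members called fell from 3 to 1 for 0dpr against baseline in immature mice, from 2 to 1 for 5dpr against 2dpr in immature mice and from 3 to 1 for that step in mature mice. For immature against mature mice at 0dpr, where the pairing held, the block left 0 members called, as without it. Fitting only the libraries compared left 0 members called for 0dpr against baseline in immature mice. At baseline, immature against mature mice gave 1 member (C4b) by DESeq2, and 1 (C4b, log2 fold change -1.05, adjusted p = 0.0252, edgeR) when both libraries that stand apart were left out, an alternative chosen after seeing the data.

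Leaving out 1 library at a time moved the count of members called from 0 to 5 for 0dpr against baseline in mature mice, from 0 to 1 for immature against mature mice at baseline, from 1 to 2 for 5dpr against 2dpr in immature mice and from 1 to 3 for that step in mature mice. The single member at baseline was Cfp without mature baseline replicate 4 and C4b without immature baseline replicate 2. For 5dpr against 2dpr, 1 member was called in immature mice without replicate 1, 2 or 3 of 2dpr or replicate 2, 4 or 5 of 5dpr, and in mature mice without replicate 1 or 2 of 2dpr or replicate 1 or 3 of 5dpr. Calls of single members moved in other comparisons too. For 0dpr against baseline in immature mice, 4 of 8 fits called C3 and 7 called C1s1. For 2dpr against 0dpr, 7 of 8 fits called C3 and 3 called C4b in immature mice. In mature mice, 2 of 8 called Cfb at that step. For 14dpr against baseline, 7 of 8 fits called C3 and 1 called Cfb in immature mice. In mature mice, 3 of 8 called Cfb and 1 called Cfp there. The causes of these gains and losses were not tested. With Spearman's rho in place of Pearson's r, 0, 2, 0 and 2 of the 5 genes named as most like C1qa, C1s1, C3 and Cfp were the same. Counts limit Cfb, which had at most 151 reads in a library.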
